A study of Mus musculus with 12 samples.

Results

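V-ATPase is the proton pump of lysosomes and endosomes, and the 34 genes described here are 17 of its subunits together with 17 lysosomal genes. They were chosen by symbol from a deposited table of 25284 genes, and all 34 have a row in it. The study behind the table asked how stimulation of the alpha 7 nicotinic acetylcholine receptor (α7nAChR) changes the aorta in atherosclerosis. Male ApoE-/- mice, which lack a protein that clears lipoproteins from blood, received the α7nAChR agonist AZ6983 at 50 µmol per kg per day (6 mice, called A1 to A6 here) or vehicle, cyclodextrin in saline (6 control mice, C1 to C6). Both groups were on the C57BL/6 background, received their treatment from implanted minipumps for 8 weeks, ate a high fat, cholesterol enriched diet and were 18 weeks old at the end. ApoE deficiency and the diet were thus shared by controls and treated mice, and there was no group without them. Stranded total RNA of the thoracic aorta was sequenced from each mouse separately. The list was put together because Atp6v1c1 was lower on AZ6983 in these same mice. The lower levels of Atp6v1c1 and of Atp6v1a, both of which were also picked out by the study from these mice, are therefore a description here and not independent evidence. The question was whether the other pump and lysosome genes had lower values too.

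V-ATPase is built from a V1 and a V0 sector. The V1 sector faces the cytosol and hydrolyses ATP, the V0 sector lies in the membrane and carries the protons, and joining of the sectors switches the pump on. The acid it makes is needed by lysosomal hydrolases, among them the lipase that frees cholesterol from the lipoproteins which macrophages take up in plaque. TFEB and TFE3 are transcription factors that bind a promoter element known as CLEAR, built around the letters CACGTG, and raise many lysosomal and V-ATPase genes together.

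Since many genes of this kind are known to carry CLEAR, its core letters were looked for in their promoters (RefSeq, GRCm38.p6, 250 bases before to 50 after the start). A promoter was matched for 27 of the 34 members, all but Atp6v1b2, Atp6v1c1, Atp6v1g1, Atp6v1h, Atp6v0a2, Atp6v0d2 and Npc1. TCACGTG, searched on both strands, was found in 8 of the 27 (29.6%), against 6.62% of the 11070 tested genes with a promoter and 4.29% of all 27025 genes. The shorter CACGTG, which lies inside TCACGTG, was found in the same 8 members, and in 11.3% and 8.09% of the genes. The longer TCACGTGA, which contains both, was found in 4 members (14.8%, against 2.01% and 1.12%), namely Atp6v1a, Atp6v0d1, Atp6v0e and Mcoln1. The match of letters nearest to the start is shown for each of the 8 genes with its flanks, CACGTG in capitals, to show which members carry it and how they resemble each other.
Atp6v1a, chr16:44139373-44139402, minus strand: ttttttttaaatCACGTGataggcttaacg
Atp6v0b, chr4:117887330-117887359, minus strand: gggtcggcgcatCACGTGcgccggtcaggt
Atp6v0d1, chr8:105566050-105566079, minus strand: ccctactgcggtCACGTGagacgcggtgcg
Atp6v0e, chr17:26676387-26676416, plus strand: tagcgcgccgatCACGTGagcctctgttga
Lamp1, chr8:13159134-13159163, plus strand: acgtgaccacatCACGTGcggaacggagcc
Mcoln1, chr8:3500462-3500491, plus strand: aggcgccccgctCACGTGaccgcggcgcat
Gaa, chr11:119267811-119267840, plus strand: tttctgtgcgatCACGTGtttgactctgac
Glb1, chr9:114401018-114401047, plus strand: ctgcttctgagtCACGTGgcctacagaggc
In each of these 8 windows the base before CACGTG is a T. Lamp1 holds 4 copies of CACGTG, and Atp6v0b and Mcoln1 hold 2 each. A match is a description of the sequence and not a measured site.

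The control libraries each held 25641329 to 29131708 counts on genes, and the AZ6983 libraries 23810036 to 35864666. The smooth muscle markers Acta2 and Myh11 were among the abundant transcripts of every mouse, with at least 3610 and 4551 CPM (counts relative to library size, corrected with the TMM factors of edgeR). Apoe, the deleted gene, still had 117 to 311 counts per mouse. Some markers of other cells had an unadjusted p under 0.05 between the groups. Of all genes tested, 7.38% were higher and 2.81% lower at such a p. The 5 thymocyte markers tested, of 8 listed, all had a positive log2 fold change with an unadjusted p under 0.05. Their summed level was 1.93 to 24.3 CPM in controls and 5.39 to 955 CPM in AZ6983 mice, with A4 far above the rest (Rag1 at 577 CPM, against at most 21.3 CPM elsewhere). Their mean log2 CPM was 7.02 in A4. In the other AZ6983 mice it was −0.62 to 2.48, which overlapped the controls, at −2.06 to 2.02. The 5 neutrophil markers tested also all had a positive log2 fold change at such a p, with 11.9 to 45.7 CPM in controls and 27.7 to 221 CPM in AZ6983 mice. Of 6 endothelial markers 5 had a positive sign and 2 of them, Tie1 and Vwf, an unadjusted p under 0.05 (1001 to 1191 CPM and 1108 to 1320.2 CPM summed). Of 7 brown fat markers 5 had a negative sign and 1, Elovl3, such a p (2769 to 4589.8 CPM and 2439 to 5929 CPM, highest in A5). Of 5 cartilage markers tested 2 were negative and 1, Col2a1 at −4.41, had such a p (82.9 to 147 CPM and 72.1 to 149 CPM). Of 7 white fat markers Lep was lower and Cfd higher at such a p (3183 to 6859 CPM and 4374 to 8258 CPM), and of 6 smooth muscle markers Lmod1 was lower (13438 to 17983 CPM and 10424 to 18008 CPM). The part of these cells in the levels of the members was not tested. Reads on no gene made up 8.02% to 12.7% of the reads in the table in controls and 11.2% to 14.9% in AZ6983 mice. As whole aortas were measured, fewer cells of a type and less RNA per cell cannot be told apart.

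No gene of the 34 reached an FDR of 10% in the quasi-likelihood test of edgeR, which was used throughout, and 0% of the 15857 genes tested did (0 genes). All 34 members passed the filter on low counts. At an unadjusted p under 0.05, 6 members were lower in AZ6983 mice, against 2.81% of all genes tested, and 0 were higher, against 7.38%. Without Atp6v1c1 and Atp6v1a, 4 of the remaining 32 were lower at that level. The count of 6 was 10 without mouse C2 (with 4.6% of all genes), also 10 without A5 (with 6.95%), and 4 without C4 (with 2.35%). The sign of the fold change was negative for 30 of 34 members, against 47.6% of all genes, and their median log2 fold change was −0.11, against 0.01 for all genes. Of the 8133 genes at or above the lowest member's mean of 14.7 CPM, 53% had a negative sign and 3.28% were lower at an unadjusted p under 0.05.

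**Figure D1:**
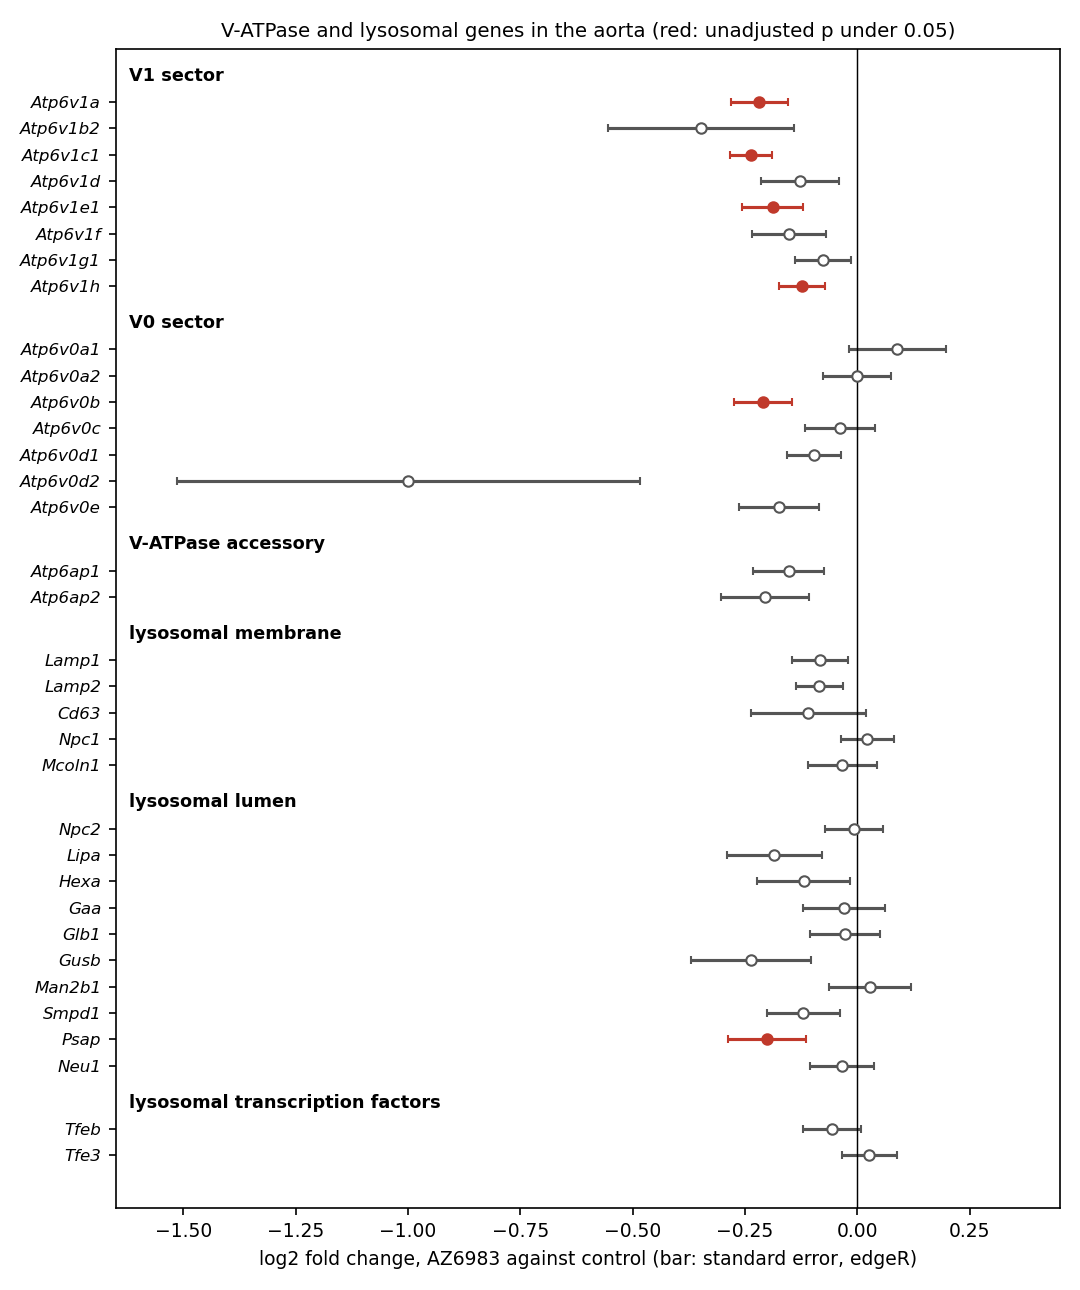
Log2 fold change (AZ6983 against control, x axis) of each of the 34 members, grouped by role, with the standard error of edgeR's fit over 6 mice per group as bars; red marks an unadjusted p under 0.05. The 8 V1 subunits all lie left of 0, Atp6v0d2 lies farthest left at −0.999 with the widest bar, and Tfeb and Tfe3 lie beside 0.

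All 8 V1 subunits had a negative log2 fold change, with a median of −0.17 and a range of −0.35 to −0.08. Of the 8, 4 were lower at an unadjusted p under 0.05, against 2.81% of all genes tested. This count and the median include Atp6v1c1 and Atp6v1a, which were already known to be lower in these mice. The V0 sector, without such genes, had 1 member of 7 lower at that p and a median of −0.10, and the difference between the sectors was not tested.

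Atp6v1c1 (chr15:38661933-38692446, GRCm38) encodes subunit C, which holds the V1 sector to the V0 sector and leaves when they separate. In control mice it was at 58.3 CPM at the lowest, 63.0 CPM at the median and 64.4 CPM at the highest. In AZ6983 mice these values were 49.9, 51.8 and 57.1 CPM. Every AZ6983 mouse was thus below every control, which held for 0.151% of all genes tested, and Atp6v1c1 was the only member of the 34 with groups that did not overlap (0.259% of genes were higher without overlap, and 0 members). The log2 fold change was −0.24 (standard error, SE, 0.0469, adjusted p = 0.394), or 84.8% of the control level.

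Atp6v1a (chr16:44085402-44139705), the catalytic subunit that hydrolyses ATP, ranged from 176 to 208 CPM in controls with a median of 196 CPM, and from 155 to 183 CPM in AZ6983 mice with a median of 164 CPM. In 4 of 6 AZ6983 mice it was below the lowest control. Its log2 fold change was −0.22 (SE 0.0626, adjusted p = 0.447). DESeq2 with its defaults called these subunits at 10% FDR (adjusted p = 0.0694 for Atp6v1a and 0.00134 for Atp6v1c1) and no other member, so that 2 members were called lower, against 0.153% of genes. The study had picked out both from these mice with DESeq2 at the same threshold. This count is therefore a description and not independent evidence.

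Atp6v1e1 (chr6:120794305-120822793) encodes a peripheral stalk subunit that ties the ATP-hydrolysing head to the membrane part. It was at 104 to 128 CPM in controls (median 118 CPM) and at 89.2 to 116 CPM in AZ6983 mice (median 103 CPM). With 3 AZ6983 mice below all controls, the groups overlapped, and the log2 fold change was −0.19 (SE 0.0684, unadjusted p = 0.0164 and adjusted p = 0.450 from edgeR). Atp6v1h (chr1:5070018-5162529), the regulatory subunit H, was at 81.9 to 95.2 CPM in controls (median 87.6 CPM) and 73.5 to 86.4 CPM in AZ6983 mice (median 81.3 CPM). Here 4 of 6 AZ6983 mice were below every control and the log2 fold change was −0.12 (SE 0.0513, unadjusted p = 0.0323, adjusted p = 0.466). Neither subunit was among the genes picked out by the study. Both were measured in the same mice, and the list was chosen with earlier results of these data known.

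The other V1 subunits had smaller or less even differences, none with an unadjusted p under 0.05. Atp6v1f had a log2 fold change of −0.15, Atp6v1d, a subunit of the central rotor, of −0.13 (−0.22 without A5) and the stalk subunit Atp6v1g1 of −0.08 (−0.045 without C1). Atp6v1b2 encodes the widely expressed form of subunit B, which forms the head together with subunit A. It had the most negative log2 fold change of the sector, −0.35, with the largest standard error, 0.207 (adjusted p = 0.557). Its controls ran from 80.3 to 192 CPM and its AZ6983 mice from 71.4 to 110 CPM. The high values belonged to controls C3 (192 CPM) and C6 (129 CPM) and to A1 (110 CPM), while the other 9 mice were between 71.4 and 92.0 CPM. The exact permutation test over the mice gave p = 0.249 (two-sided). Without C3 alone the log2 fold change was −0.13.

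**Figure D2:**
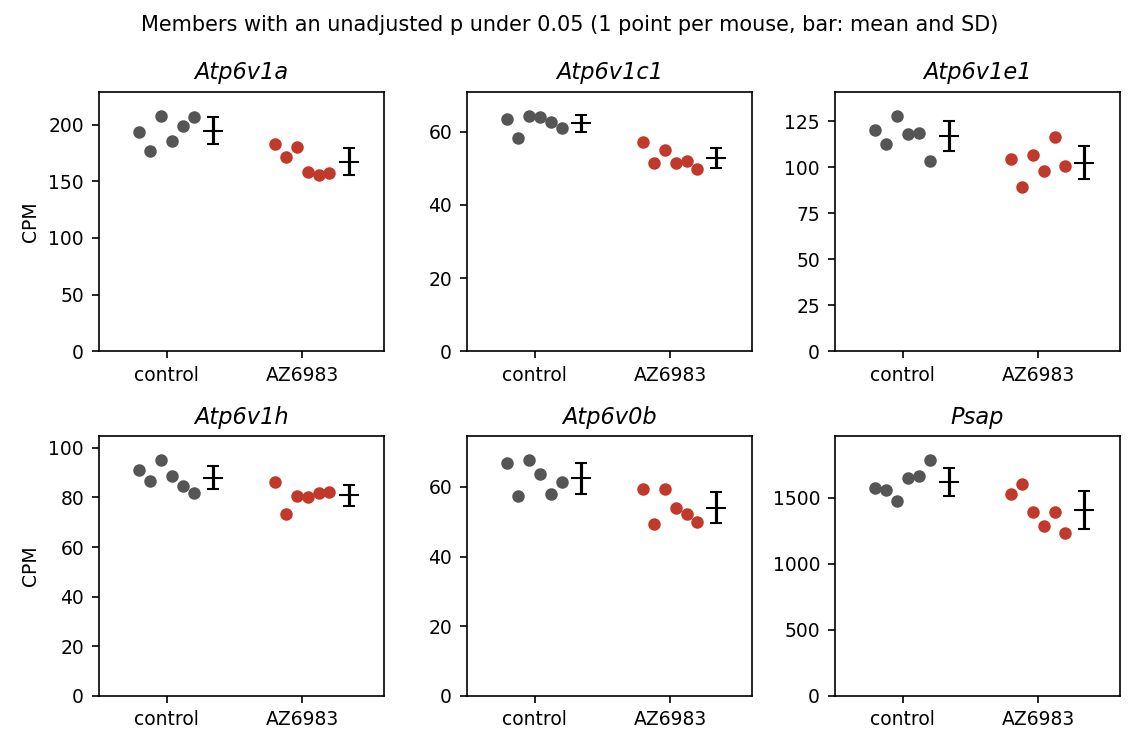
CPM (y axis, from 0) in each of 6 control and 6 AZ6983 mice for the 6 members with an unadjusted p under 0.05, with the mean and SD as bars. Atp6v1c1 alone separates the groups, while the AZ6983 points of the other 5 genes lie low but overlap the controls.

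C3, C6 and A1 also had the most nerve RNA. On a list of 10 genes of sympathetic and other neurons written after Atp6v1b2 had been seen, the summed level was 1006 CPM in C3, 529 CPM in C6 and 391.5 CPM in A1, and at most 159.8 CPM in the other mice. Th, the enzyme that begins noradrenaline synthesis, was at 131, 62.8 and 50.1 CPM in these 3 mice and at most 15.9 CPM elsewhere. Over the groups the summed level ran from 36.9 to 1006 CPM in controls and from 44.8 to 391.5 CPM in AZ6983 mice, and none of the 10 genes had an unadjusted p under 0.05, although all 10 had a negative log2 fold change. Atp6v0e2, a second form of a small V0 subunit, had its highest values in the same mice, 22.4, 16.8 and 16.4 CPM. Without C3, C6 and A1, the log2 fold change of Atp6v1b2 was −0.06 and that of Atp6v1c1 was −0.27. These 3 mice were left out after their high Atp6v1b2 values had been seen. The smaller difference of that gene is thus a description only, and the part of nerve RNA in it was not tested. Of the V1 subunits Atp6v1a, Atp6v1c1, Atp6v1e1 and Atp6v1h were then lower at an unadjusted p under 0.05, as were 3.16% of all genes. In that fit 1 member was higher at that level, and the log2 fold change of Atp6v0a1 was 0.22.

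Of the V0 subunits, Atp6v0b (chr4:117884326-117887333), a ring subunit that carries protons through the membrane, had the smallest p. It ranged from 57.3 to 67.8 CPM in controls (median 62.5 CPM) and from 49.4 to 59.5 CPM in AZ6983 mice (median 53.0 CPM). In 4 AZ6983 mice it was below all controls, and A1 and A3, at 59.4 and 59.5 CPM, were inside the control range. The log2 fold change was −0.21 (SE 0.0655, unadjusted p = 0.00695, adjusted p = 0.447). Atp6v0e had −0.17 and Atp6v0d1, the widely expressed form of the subunit that links the rotor to the ring, −0.10, with 62.1 to 76.9 CPM in AZ6983 mice against 66.4 to 79.5 CPM in controls. Atp6v0a2 was at −0.0015 and Atp6v0a1, a form of the large membrane subunit, at 0.09, the only V-ATPase member with a positive sign. Atp6v0c, the main ring subunit, differed by −0.04 (SE 0.0778) and had 12.2 to 16.7 CPM in controls and 13.4 to 15.3 CPM in AZ6983 mice. By symbol, GENCODE lists 2 pseudogenes of Atp6v0c and 1 pseudogene of Cd63. Pseudogenes under other symbols were not looked for, for any member. Reads without a unique place, 18.1% to 23.2% of the reads in the table per mouse, were counted for no gene. Reads that fit a gene and its copy equally would be among them. The levels of Atp6v0c and Cd63 are therefore uncertain and may be too low, and the same would hold for other members with copies.

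The accessory subunits Atp6ap1 and Atp6ap2, which help to assemble the pump, had log2 fold changes of −0.15 and −0.21 (adjusted p = 0.517 and 0.498). Atp6ap2 ranged from 90.8 to 116 CPM in controls and from 67.9 to 107 CPM in AZ6983 mice, with A5 lowest and A1 highest among the latter.

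Atp6v0d2 is the form of subunit d known from osteoclasts and macrophages, and it had the largest standard error of the 34 genes. Controls lay at 10.6, 19.1 and 32.2 CPM (lowest, median and highest) and AZ6983 mice at 2.21, 8.29 and 28.8 CPM. Mice A3 to A6, at 2.21 to 9.96 CPM, were below all controls, whereas A2 was at 28.8 CPM, near the highest control, and A1 at 14.5 CPM. The log2 fold change of −0.999 (SE 0.516) had an unadjusted p of 0.0749 and an adjusted p of 0.521 by edgeR. The exact permutation test over the mice took the difference of mean log2 CPM, −1.39, and gave p = 0.0433 (two-sided). It was 1 of 15 members tested in this way, without adjustment. Leaving out A2 gave a log2 fold change of −1.58 by edgeR.

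Among the macrophage markers, Gpnmb and Trem2, chosen for display after their values were seen, were highest in A2 and lowest in A5 among the AZ6983 mice, like Atp6v0d2. Gpnmb, a glycoprotein of lipid-loaded macrophages, was at 104 to 305 CPM in controls, at 310 CPM in A2 and at 32.4 and 51.9 CPM in A5 and A6, the mice lowest in Atp6v0d2. Trem2, a lipid receptor of foam cells, was at 16.9 CPM in A2 and 2.66 CPM in A5, but in A3, which was below all controls for Atp6v0d2, it was at 10.9 CPM, inside the control range of 6.14 to 15.4 CPM. Of the 12 macrophage markers 6 had a negative and 6 a positive log2 fold change, 0 had an unadjusted p under 0.05, and their summed level was 915 to 1655 CPM in controls and 737 to 1647 CPM in AZ6983 mice. The mean log2 CPM over all 12 was also highest in A2 (6.03) and lowest in A5 (4.90) among the AZ6983 mice. That order was thus not particular to Gpnmb and Trem2. Csf1r, a receptor on macrophages in general, was at 86.3 to 132 CPM and 92.3 to 134 CPM, with A2 highest and A5 lowest among the AZ6983 mice. Of the osteoclast markers, Calcr has no row, and Dcstamp and Oscar had at most 14 and 7 counts in any mouse. Of the 5 that were tested 1 was lower (Ocstamp) and 1 higher (Mmp9) at an unadjusted p under 0.05, against 2.81% and 7.38% of all genes. The part of these cells in the level of Atp6v0d2 was not tested.

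**Figure D3:**
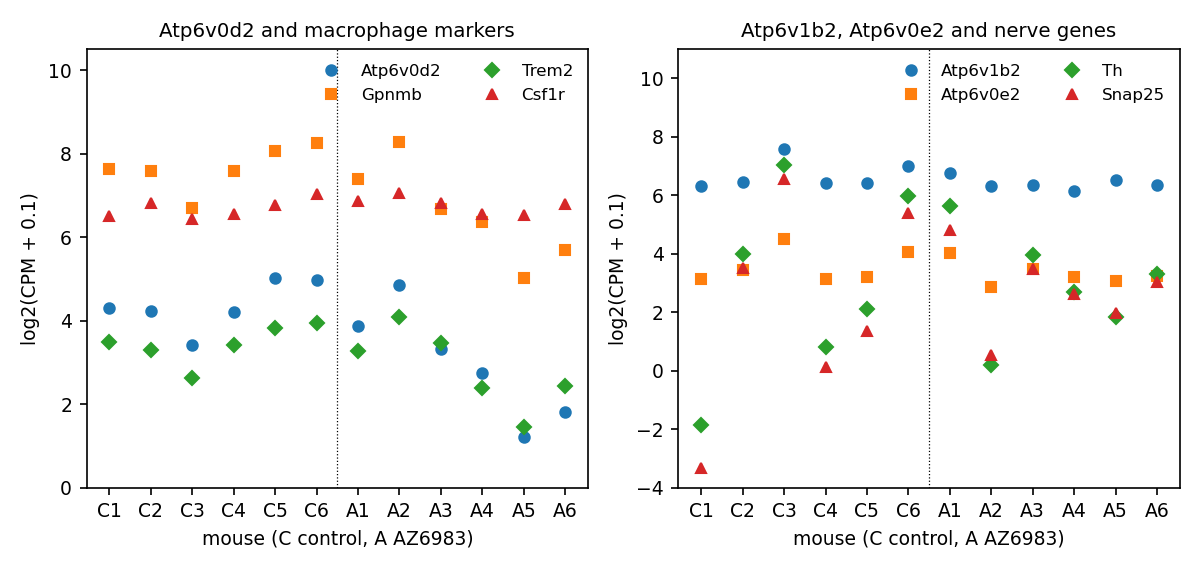
Log2(CPM + 0.1) in each mouse (x axis, controls left of the dotted line) of Atp6v0d2 with 3 macrophage markers (left) and of Atp6v1b2 and Atp6v0e2 with 2 nerve genes (right). On the left Atp6v0d2, Gpnmb and Trem2 are high in A2 and low in A5, where Csf1r has a smaller difference in the same order, and on the right all genes are high in C3, C6 and A1.

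Compared between genes per kilobase of exon (GENCODE M21, GRCm38), the subunits were not at equal levels. In controls the median was highest for Atp6ap1, at 61.2 CPM per kb, Atp6v1g1, at 58.9, and Atp6v1f, at 44.8, and the first of these did not differ from the second beyond their spread (53.7 to 64.1 against 56.0 to 66.4 CPM per kb). Atp6v1a was at 32.5 CPM per kb and Atp6v1c1 at 11.2. Atp6v1h, at 8.99 CPM per kb, was the lowest V1 subunit by this measure, and it had the longest exon length of the sector, 9746 bases. Before division by length its control median, 87.6 CPM, was above the 47.6 CPM of Atp6v1f, which has 1063 bases. In the V0 sector the order ran from Atp6v0d1, at 40.3 CPM per kb, to Atp6v0c, at 4.44, with Atp6v0d2 at 7.03. The level of Atp6v0c may be too low, as reads that fit its pseudogenes equally would be set aside. The annotation used for counting is not given in the sources used here, so lengths and levels per length are approximate.

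**Figure D4:**
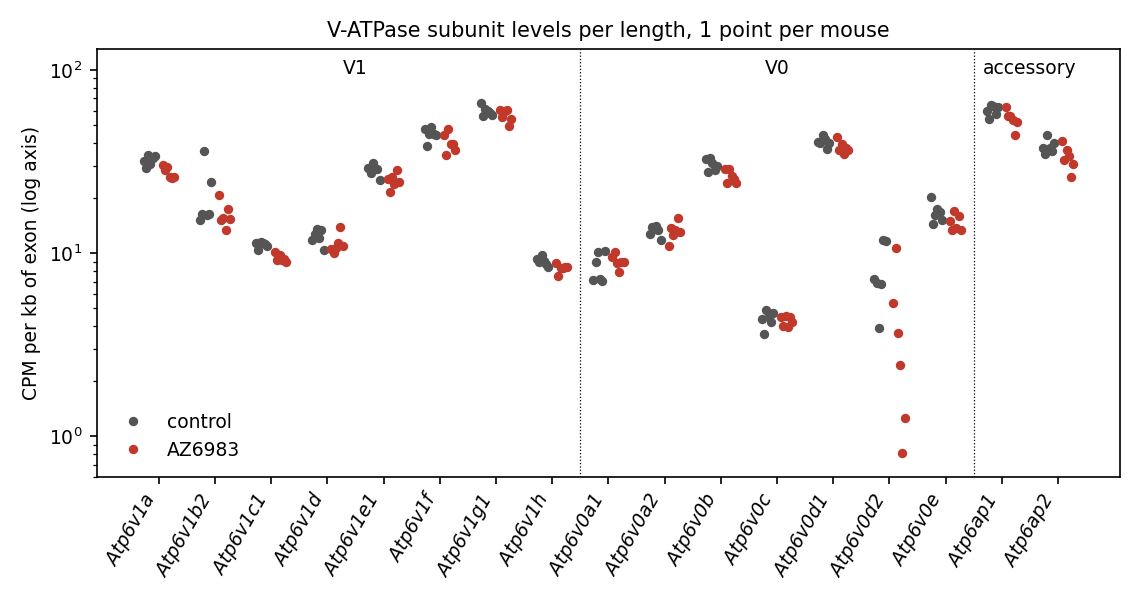
CPM per kb of exon (y axis, log scale) of the 17 V-ATPase genes in each control (grey) and AZ6983 mouse (red). Levels span from 0.812 CPM per kb for Atp6v0d2 in A5 to 66.4 for Atp6v1g1 in a control mouse, and Atp6v0d2 has the widest spread within a group.

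Fold changes of the lysosomal genes lay nearer to 0 than those of the pump, a difference that was not tested. Of 17 lysosomal members 14 had a negative sign, 1 an unadjusted p under 0.05, and the median log2 fold change was −0.06, against −0.15 for the 17 V-ATPase members. Of all genes tested, 47.6% had a negative sign and 2.81% were lower at that p. The V-ATPase members include Atp6v1c1 and Atp6v1a, which were already known to be lower in these mice. The lysosomal gene with that p was Psap (chr10:60277627-60302597), which encodes prosaposin, the precursor of the saposins that help enzymes degrade sphingolipids. Psap had 1475 to 1786 CPM in controls and 1233 to 1606 CPM in AZ6983 mice, with A3 to A6 below all controls and A1 and A2 inside their range. Its log2 fold change was −0.20 (SE 0.0868, unadjusted p = 0.0379, adjusted p = 0.475).

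Among the other soluble lysosomal proteins, Lipa, the acid lipase that hydrolyses cholesteryl esters, was at 142 to 184 CPM in controls (median 152 CPM) and 117 to 182 CPM in AZ6983 mice (median 129 CPM). In 4 of 6 AZ6983 mice it was below every control, A1 was just inside the range and A5 was near the top of it, and the log2 fold change was −0.19 (SE 0.106, adjusted p = 0.545), or −0.30 without A5. Gusb, a glucuronidase, had −0.24 with a standard error of 0.133, or −0.36 without A2. Npc2, which hands cholesterol to Npc1, had −0.01, and the glycosidases Hexa, Gaa, Glb1, Man2b1 and Neu1 lay between −0.12 and 0.03. Smpd1, acid sphingomyelinase, had −0.12.

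The lysosomal membrane genes had a median log2 fold change of −0.08, as did the soluble ones, and none of the 5 had an unadjusted p under 0.05. Lamp1 and Lamp2, the abundant glycoproteins of the lysosomal membrane, had log2 fold changes of −0.08 and −0.09 (standard errors 0.0632 and 0.0525). Lamp1 was at 509 to 571 CPM in controls and 449 to 535 CPM in AZ6983 mice. Npc1, the cholesterol exporter of the lysosome, was at 65.8 to 75.6 CPM and 67.6 to 79.4 CPM, a log2 fold change of 0.02 (SE 0.0588). Cd63 had −0.11 and the calcium channel Mcoln1 −0.03.

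The transcription factors were low beside most other members, and their levels were even over the mice. Tfeb was at 13.97 to 16.2 CPM in controls and 13.3 to 15.9 CPM in AZ6983 mice, and its log2 fold change was −0.06 (SE 0.0642, adjusted p = 0.756). Tfe3 was at 24.8 to 29.5 CPM and 24.3 to 29.3 CPM, with 0.03 (SE 0.0611, adjusted p = 0.900). The 8 members with CACGTG in their promoters had log2 fold changes from −0.22, for Atp6v1a, to −0.03, for Glb1. All 8 signs were negative, but so were 30 of the 34 over all members, and a link to these letters was not tested. The signs of Gaa and Glb1 turned positive without C6, that of Gaa also without A4 and that of Glb1 without A6. When the no-gene share was added to the fit, Atp6v0e (0.063), Mcoln1 (0.047) and Glb1 (0.0048) were positive.

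Further genes of the pump and the lysosome came from 5 lists. Of all genes tested, 47.6% had a negative sign, and 2.81% were lower and 7.38% higher at an unadjusted p under 0.05. Of 5 tested forms of V-ATPase subunits outside the members, 2 had a negative sign and 0 an unadjusted p under 0.05, with the smallest p for Atp6v0a4 (log2 fold change 0.39, at most 1.14 CPM), Atp6v0e2 (−0.31, or −0.083 without C3) and Atp6ap1l (0.31, or 0.11 without C3). The kidney and epithelial forms Atp6v1b1 and Atp6v1g3 had at most 3 and 2 counts in any mouse, and Atp6v1c2, the other form of subunit C, at most 17. Of 9 assembly factors and regulators 7 were negative and 0 passed an unadjusted p of 0.05, with Ccdc115 at −0.13, Rogdi at 0.20 and Wdr7 at −0.12. Among 26 other lysosomal enzymes 20 were negative, 0 had an unadjusted p under 0.05 and the median was −0.06, with Sumf1 at −0.18, Ppt1 at −0.15 and Aga at −0.13. Among 24 other membrane and transport genes 3 were lower and 1 higher at an unadjusted p under 0.05, against 2.81% and 7.38% of all genes. The lower genes were Laptm4b, M6pr and Scarb2, the last (−0.23) named after its values were seen. Laptm4b, a membrane protein of late endosomes, had −0.22 (adjusted p = 0.447) and M6pr, a receptor that carries hydrolases to lysosomes, −0.15 (adjusted p = 0.448), each with 5 AZ6983 mice below every control. Laptm4b, like Atp6v1c1 and Atp6v1a, was picked out by the study from these mice and is no independent evidence. DESeq2 with its defaults called Laptm4b at 10% FDR (adjusted p = 0.0666). Tpcn1, a cation channel of endosomes, had 0.24 (adjusted p = 0.450), or 0.14 without A5. Of 16 genes of the TFEB family and its regulators 1 was lower at that level, Mitf, a relative of Tfeb, at −0.22 (adjusted p = 0.450), while Rptor had 0.16 (0.082 without A5) and Rragd −0.36 (−0.16 without C3).

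The V1 subunits tended to be lower in mice with a higher share of reads on no gene, but not in every mouse. C1, with the lowest share (8.02%), had a mean log2 CPM of the V1 subunits of 6.37, below the 6.57 of C3 (9.81%), and C4 to C6 (9.29% to 10.4%) lay at 6.35 to 6.36. C2, the control with the highest share (12.7%), had the lowest V1 mean among controls, 6.28, and the lowest control values of Atp6v1c1, Atp6v1a and Atp6v0b. In AZ6983 mice A1, with the lowest share (11.2%), had the highest V1 mean, 6.32, and A2, with the highest share (14.9%), the lowest, 6.10. The mean includes Atp6v1b2, whose log2 CPM was high in C3 (7.58), C6 (7.01) and A1 (6.78). The means of these mice, and their distance from the others, thus depend in part on that gene. When the share was added to the edgeR fit, 1 member in place of 6 was lower at an unadjusted p under 0.05, beside 1.07% of all genes. It was Atp6v1c1, at −0.14 (SE 0.0551, adjusted p = 0.9998 by edgeR). Atp6v1a then had −0.15 (SE 0.0872), Atp6v1e1 −0.08 (SE 0.0885), Atp6v1h −0.04 (SE 0.0652), Atp6v0b −0.04 (SE 0.0666) and Psap −0.22 (SE 0.125), and 6 of 8 V1 signs and 24 of 34 signs over all members were negative. The V1 median was then −0.096, in place of −0.17. Since the share also differed between the groups, its part and that of AZ6983 cannot be told apart in these mice.

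**Figure D5:**
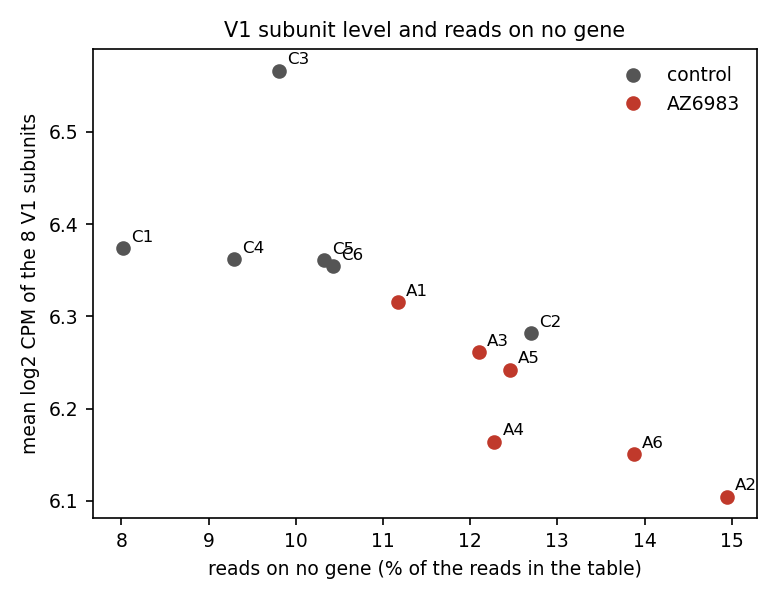
Mean log2 CPM of the 8 V1 subunits (y axis) against the percent of reads on no gene (x axis) in each control (grey) and AZ6983 mouse (red). Control C2, at 12.7%, lies among the AZ6983 mice, and A2, at 14.9%, has the lowest V1 mean, 6.10. The mean includes Atp6v1b2, which was high in C3, C6 and A1.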

How the data were processed

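RNA of 12 aortas, 6 per group, was sequenced as stranded, ribosome-depleted total RNA libraries. The authors deposited a table of raw read counts per gene, and the submitters' processing notes name CASAVA 1.8.2, STAR 2.5.2b, HTSeq 0.6.1p1 and the mm10 genome; the gene annotation is not given in the sources used here. Rows that name no gene entered neither library sizes nor tests (reads on no gene were 8.02% to 14.9%). All 12 columns were matched to mice through the mouse number in the sample titles, although the column of A1 holds only the end of its number, and numbers 1 to 6 here follow deposit order. Libraries of a pair always differed by more than sampling noise (chi-square per degree of freedom at least 12.6 over 66 pairs).

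Counts were analysed in R 4.3.3 with edgeR 4.0.16 (TMM, filterByExpr, quasi-likelihood F test, Benjamini-Hochberg over the 15857 genes tested, threshold 10% FDR). Of 25284 genes the rest were too low. Standard errors were derived from the fold change and F, and log2 CPM used a prior count of 2. DESeq2 1.42.0 and limma 3.58.1 (voom) were alternatives, and so were other normalizations, filters, thresholds, a covariate and leaving out each mouse. Exact permutation tests covered all 924 assignments of mice for 15 members, singly, and were not adjusted. The code was tested on simulated data.

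The members and lists were chosen with earlier results of these data known. All 34 members are named, those with an unadjusted p under 0.05 and 11 others with values by mouse, and of each of 5 further lists the 3 genes with the smallest p. Positions and exon lengths came from GENCODE M21 (GRCm38), promoters from RefSeq (GRCm38.p6).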

Additional observations from a re-analysis of the deposited data

Results flagged for a closer look

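In 98 groups of 6 mice (the members and other named genes, by treatment), Dixon's criterion for a sample far from the others was met 2 times, where chance would give 4.9. Wdr7, which encodes a partner of V-ATPase, was at 6.166 log2 CPM in A1, against 5.708 to 5.867 in the other AZ6983 mice. Tpcn1 was at 5.686 log2 CPM in A5, against 5.127 to 5.315 in the other AZ6983 mice. None of the 34 members met it.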

How the results depend on the processing

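No paired analysis was possible because the labels give the mice no numbers that are shared between the groups. The number of members past 10% FDR, 0 with edgeR, was 2 with DESeq2 defaults and 2 with DESeq2 on the genes that passed the edgeR filter. These 2 were Atp6v1c1 and Atp6v1a, and over all genes the count was 92 and 84, against 0 with edgeR. It was 27 without A5, 4 with limma-voom and quality weights, 3 without C3, C6 and A1, 2 with library totals only and 1 each without C6 and without A1. Members lower at an unadjusted p under 0.05, 6 in the main test, were 11 with limma-voom and sample quality weights (beside 5.9% of all genes, from 2.81%), 1 with the no-gene share of reads in the fit (beside 1.07%), and 4 to 10 when 1 mouse was left out. Members higher at that level were 1 without C3, C6 and A1, where Atp6v0a1 had a log2 fold change of 0.22. Leaving out these mice was a choice made after seeing the data. The median log2 fold change of the TFEB family and its regulators was −0.12 to −0.043 over the mice left out, lowest without A5. The cause was not tested. The V1 median, −0.17, was −0.22 to −0.15 over the mice left out and −0.096 with the no-gene share in the fit, where 24 in place of 30 of 34 members had a negative sign. Laptm4b, too, was called by DESeq2 (adjusted p = 0.0666 with defaults and 0.0647 on the filtered genes).

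Signs of small fold changes turned. With a filter at a mean of 50 counts Atp6v0a2 had 0.0068 and Npc2 0.00085, and with quality weights Npc1 had −0.016 and Tfe3 −0.00037. Without C3, C6 and A1, Atp6v0a2 had 0.0042, Atp6v0c 0.0082 and Gaa 0.0093. When the no-gene share was in the fit, log2 fold changes were 0.084 for Atp6v1f, 0.041 for Atp6v1g1, −0.060 for Atp6v0a1, 0.11 for Atp6v0c, 0.063 for Atp6v0e, −0.013 for Npc1, 0.047 for Mcoln1, 0.067 for Npc2, 0.0048 for Glb1, −0.026 for Man2b1, 0.022 for Smpd1, 0.029 for Neu1, 0.021 for Tfeb, −0.026 for Tfe3, 0.019 for Ppt1 and 0.11 for Aga. Over all settings that left out mice, ranges that crossed 0 were −0.073 to 0.046 for Atp6v0a2, −0.11 to 0.0082 for Atp6v0c, −0.023 to 0.040 for Npc1, −0.090 to 0.018 for Npc2, −0.092 to 0.016 for Gaa, −0.084 to 0.0086 for Glb1, −0.033 to 0.075 for Man2b1, −0.076 to 0.0080 for Neu1 and −0.020 to 0.060 for Tfe3. Fold changes over 0.1 in size that 1 mouse moved by more than 1.5 times, beside those in the report, were those of Cd63 (−0.21 without A2, −0.044 without A5), Hexa (−0.18 without A2, −0.071 without A6), Smpd1 (−0.19 without A5, −0.076 without C4), Atp6v0e (−0.11 without C1), Aga (−0.079 without C1), Wdr7 (−0.18 without A1, −0.060 without C3), Rogdi (0.097 without A5), Atp6v0a4 (0.25 without A5), Atp6v0e2 (−0.50 without A1) and Atp6ap1l (0.63 without C6). No setting moved the median of all genes by more than 0.1. With 6 mice per group, low genes such as Atp6v0a4 are measured with wide errors.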
